A study of Mus musculus with 5 samples.

Results

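Iron and metallothionein genes were examined in kidney cortical tissue of *Fnip1* null and wildtype mice. The set was fixed by symbol and holds 9 of the 24421 gene symbols counted: the metallothioneins *Mt1* and *Mt2*, the ferritin subunits *Fth1* and *Ftl1*, the transferrin receptor *Tfrc*, transferrin itself (*Trf*), the iron exporter ferroportin (*Slc40a1*), the iron importer DMT1 (*Slc11a2*) and the iron regulatory protein IRP2 (*Ireb2*). Cortical tissue of 3 *Fnip1*-/- mice (8637, 9210 and 9121) and 2 *Fnip1*+/+ mice (9055 and 9056) was flash frozen and sequenced, with 1 library per mouse. All 5 mice were on the C57BL6J background. The null allele came from chemical (ENU) mutagenesis and is carried in every cell from conception, so the comparison is not limited to the kidney or to 1 cell type. The deposited file of mouse 9210 has another mouse number in its name, and the mouse is called here by its label. The labels give neither age nor sex for a mouse, and the study's text also describes the controls as *Fnip1*+/-; they are called wildtype here. The question was whether loss of *Fnip1*, a binding partner of folliculin and AMPK, was accompanied by a different level of the transcripts that take up, store and export iron or bind zinc and copper.

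Cells take up iron mainly as transferrin bound to its receptor, move it out of the endosome through DMT1, store it in ferritin and release it through ferroportin. The balance is set largely after transcription. When iron is scarce, the iron regulatory proteins IRP1 (encoded by *Aco1*) and IRP2 bind hairpins called iron responsive elements: in the 5′ untranslated region (UTR) of ferritin and ferroportin transcripts this blocks translation, and in the 3′ UTR of the transferrin receptor transcript it protects the RNA from decay. RNA counts therefore read the *Tfrc* arm of this control more directly than the ferritin arm. Metallothioneins are small cysteine-rich proteins that bind zinc, copper and cadmium, and their genes are induced by metals, glucocorticoids and inflammation. In the kidney, filtered iron and metal-binding proteins are taken up mostly by the proximal tubule.

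The iron responsive elements are shown because those in a 5′ UTR act on translation and those in the *Tfrc* 3′ UTR on RNA stability. A hairpin was searched for on the sense strand of whole protein-coding transcripts as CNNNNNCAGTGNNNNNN, with 5 bases paired across the loop, G:U pairs allowed, and no G after CAGTG. It was present in 4 of the 9 genes and in 1.08% of the 19917 genes searched. Sequences are from GENCODE transcripts on GRCm38, are written 5′ to 3′ as 28 bases with T for U, and have the loop in capitals.
Fth1, 5′ UTR, chr19:9982733-9982760, plus strand: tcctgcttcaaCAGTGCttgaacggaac
Ftl1, 5′ UTR, chr7:45459779-45459806, minus strand: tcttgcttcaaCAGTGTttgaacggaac
Slc40a1, 5′ UTR, chr1:45925465-45925492, minus strand: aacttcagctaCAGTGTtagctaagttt
Tfrc, 3′ UTR, chr16:32631220-32631247, plus strand: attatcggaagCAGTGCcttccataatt
Tfrc, 3′ UTR, chr16:32631599-32631626, plus strand: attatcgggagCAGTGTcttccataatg
Tfrc, 3′ UTR, chr16:32631664-32631691, plus strand: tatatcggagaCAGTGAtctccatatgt
Tfrc, 3′ UTR, chr16:32631711-32631738, plus strand: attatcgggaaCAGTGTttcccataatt
The ferritin pair carried nearly the same hairpin, and the *Tfrc* transcript held 4 of them within a short stretch of its 3′ UTR. The remaining members, *Slc11a2* among them, held no match in the transcripts searched, which says only that these letters with this pairing were not there. A hairpin with an unpaired base in these 5 pairs would be missed, so the search does not place a gene outside this control.

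The libraries held 15799114 to 19132145 counts on genes, and values below are normalized CPM, counts scaled to a common library size after TMM normalization, on which 3 counts of a mouse correspond to 0.158 to 0.186. The targeted gene followed the labels: *Fnip1* was 21.0, 16.9 and 16.0 in null mice 8637, 9210 and 9121 and 51.7 and 48.6 in the wildtype mice (log2 fold change -1.48, SE 0.136, adjusted p = 0.0313). The null mice were unlike each other. By the mean squared difference of counts per gene, in units of sampling variance (1 for sampling noise alone), 9210 and 9121 were the closest null pair (23.4). Mouse 8637 was at 31.6 from 9210 and 67.0 from 9121, and closer to wildtype mouse 9055 (29.97) than to either. The wildtype mice were at 9.58 from each other. Mouse 9121 had 314 CPM of *Xist* against at most 1.41 in the other 4 mice, and no count of the Y-linked genes *Ddx3y*, *Kdm5d* and *Uty*. By these genes it read as a female and the other 4 mice as males, so sex was mixed within the null group. Mouse 9121 also had the lowest levels of the proximal tubule genes *Slc7a13* (4.17) and *Cyp2e1* (103). A difference of mouse 9121 from the other null mice cannot be told apart from one of sex. Mice 9210 and 9121 had the highest summed adipocyte markers, 357 and 167 CPM against 36.1 to 54.3 in the other mice. Summed macrophage, neutrophil, podocyte and collecting duct markers were also highest in these mice. Log2 fold changes of the 9 genes are given without 8637, or without 9210 and 9121, where this changed a call or moved the value by more than 1.5 times. Adjusted p-values are from edgeR's quasi-likelihood test over 13874 genes unless another test is named, and an exact two-sided permutation test of 3 against 2 mice cannot give a p-value below 0.1.

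Of the 9 genes, the transferrin transcript differed most between the genotypes, with a mean 3.95 times as high in *Fnip1* null as in wildtype mice. *Mt1* was the next, at 1.62 times. None of the 9 met the call rule (FDR under 5%, 2-fold or more), which 0.533% of all genes tested met, and none passed the FDR alone, which 0.735% did. At an unadjusted p below 0.05, *Mt1* and *Trf* were higher and *Slc11a2* was lower, 3 of 9 where 25.1% of all genes tested passed. The null mice lay all above both wildtype mice in 4 genes (*Mt1*, *Ftl1*, *Trf* and *Slc40a1*) and all below in 2 (*Fth1* and *Slc11a2*), so that 6 of 9 did not overlap, where 45.9% of all genes did not. The median log2 fold change of the 9 was 0.27, and that of all genes tested was 0.0031. By the same rule edgeR's exact test called 1 of the 9, *Trf*, and 4.11% of all genes, and DESeq2 called *Trf* and 3.51% of all genes. By the FDR alone, the exact test passed 2 of the 9 (*Mt1* and *Trf*) and 9.82% of all genes, and DESeq2 passed 3 (*Mt1*, *Fth1* and *Trf*) and 10.3% of all genes.

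**Figure D1:**
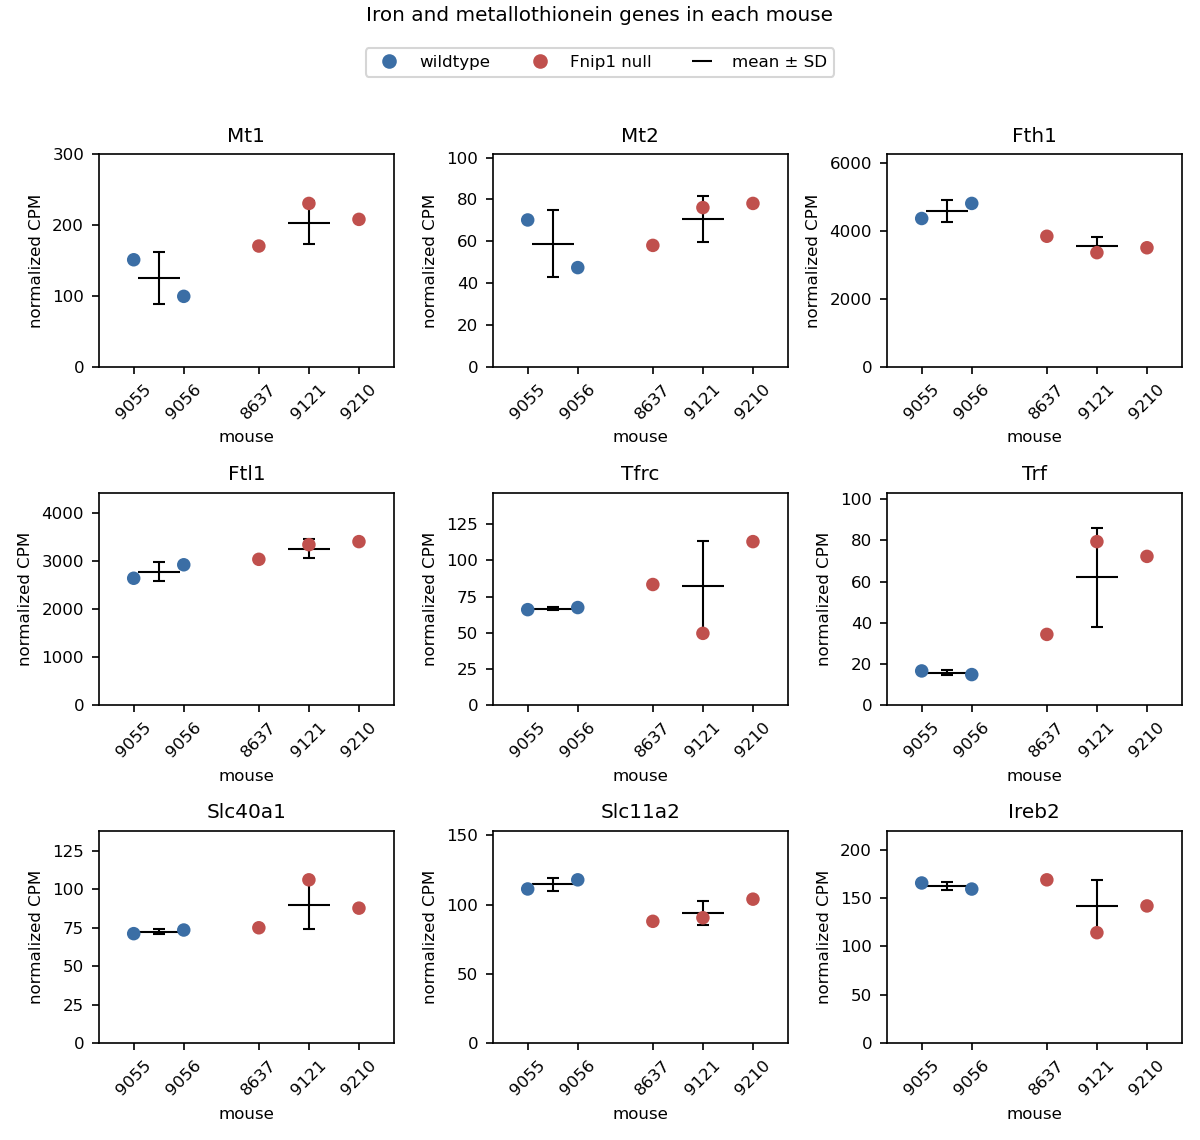
Normalized CPM (vertical axes, from 0) of each of the 9 genes in each mouse (horizontal axes), with the group mean and SD as bars. Trf lay between 34.3 and 79.4 in the Fnip1 null mice and between 14.8 and 16.6 in the wildtype mice, while Mt2, Tfrc and Ireb2 overlapped between the genotypes.

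Transferrin, the plasma carrier of iron, is made mainly by liver, with lower expression in other tissues. The *Trf* gene lies on chromosome 9 at 103204001 to 103230444 (GRCm38, minus strand) and overlaps a same-strand readthrough model, *Gm20425*, with which it can share reads. Normalized *Trf* was 34.3, 72.2 and 79.4 CPM in *Fnip1* null mice 8637, 9210 and 9121 and 16.6 and 14.8 CPM in wildtype mice 9055 and 9056, from 583, 1216 and 1505 counts and 267 and 259 counts. Every null mouse was above both wildtype mice, and mice 9210 and 9121 held the highest values. The means were 62.0 ± 24.2 (SD, n = 3) and 15.7 ± 1.25 (SD, n = 2), a log2 fold change of 1.98 (SE 0.367, adjusted p = 0.0673). *Trf* passed the FDR with edgeR's exact test (adjusted p = 3.19e-05), with DESeq2 (adjusted p = 1.22e-06) and without the filter on low counts (adjusted p = 0.0448, where 0.812% of genes were called). Without mouse 8637 the quasi-likelihood test gave 2.28 (adjusted p = 0.00138), where 6.49% of all genes were called. Without both 9210 and 9121 it gave 1.13 (adjusted p = 0.00618, where 1.23% of all genes were called), a smaller difference that rests on mouse 8637 alone, in a fit whose spread comes from the 2 wildtype mice and is assumed to hold for the null mouse. Without mouse 9210 it gave 1.86 (adjusted p = 0.238), and without mouse 9121 1.76 (adjusted p = 0.0544).

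*Tfrc*, the receptor that brings transferrin into the cell, spanned the wildtype level. It was 83.4, 113 and 49.6 CPM in the null mice (8637, 9210 and 9121) and 66.0 and 67.4 CPM in the wildtype mice. One null mouse, 9121, was below both wildtype mice and the other two were above, so the genotypes overlapped. The mean was 82.0 ± 31.8 (SD, n = 3) in null and 66.7 ± 1.03 (SD, n = 2) in wildtype mice, with a log2 fold change of 0.30 (SE 0.313, adjusted p = 0.578). Mouse 9210 carried that difference: without it the log2 fold change was -0.0057, and without 9121 it was 0.56. The spread of *Tfrc* among null mice was far wider than between the wildtype mice.

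*Slc11a2*, which carries ferrous iron across apical and endosomal membranes, was lower in every null mouse. Its values were 88.0, 104 and 90.5 CPM in the null mice and 111 and 118 CPM in the wildtype mice, without overlap. The log2 fold change was -0.28 (SE 0.104), which did not pass the FDR (adjusted p = 0.167). An opposite-strand gene, *Gm5475*, overlaps *Slc11a2* and had a mean of 1.12 CPM. Whether counting used the strand is not given in the sources used here, so reads of overlapping genes cannot be told apart.

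The ferritin subunits stood on opposite sides. *Fth1*, the heavy subunit that oxidizes iron as it enters the shell, was 3851, 3512 and 3368 CPM in null mice 8637, 9210 and 9121 and 4375 and 4820 CPM in wildtype mice. All null mice were below both wildtype mice, with a log2 fold change of -0.36 (SE 0.166, adjusted p = 0.233). DESeq2 passed it at an adjusted p of 0.0352. *Ftl1*, the light subunit that aids mineral formation in the shell, was 3036, 3405 and 3342 CPM in null and 2642 and 2923 CPM in wildtype mice. All null mice were above both wildtype mice, with a log2 fold change of 0.23 (SE 0.159, adjusted p = 0.406) that was 0.13 without 9210 and 9121. The ratio of *Fth1* to *Ftl1* counts was 1.27, 1.03 and 1.01 in the null mice and 1.66 and 1.65 in the wildtype mice. Every null mouse was below both wildtype mice, which follows from the opposite sides of the 2 genes and is not a separate result. The means of the ratio were 1.10 ± 0.144 (SD, n = 3) and 1.65 ± 0.00499 (SD, n = 2), a log2 difference of -0.59. This ratio does not depend on how libraries were scaled. The ferritin genes have several processed copies in the genome, and reads that align to more than 1 place (28.3% to 31.4% of the records) were not counted, so both levels are uncertain.

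**Figure D2:**
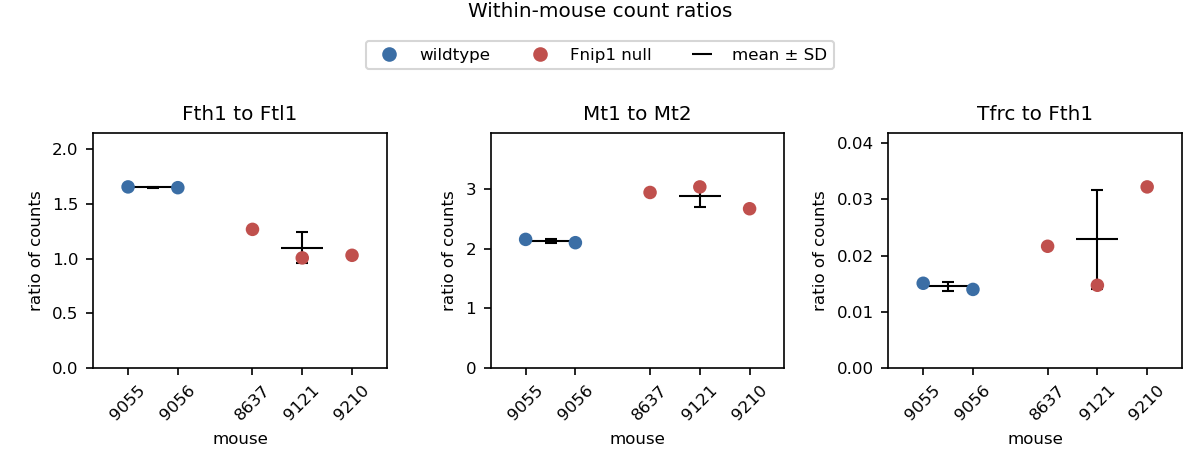
Ratios of counts within each mouse (vertical axes, from 0) by mouse (horizontal axes), with the group mean and SD as bars. Fth1 to Ftl1 was lower and Mt1 to Mt2 higher in every Fnip1 null mouse than in both wildtype mice, and Tfrc to Fth1 overlapped.

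*Slc40a1* encodes ferroportin, the only known iron exporter of mammalian cells. It was 74.9, 87.6 and 106 CPM in the null mice and 71.1 and 73.4 CPM in the wildtype mice. Mouse 8637 was just above the higher wildtype mouse and 9121 was the highest, with no overlap. The log2 fold change was 0.31 (SE 0.152, adjusted p = 0.258), and in the settings tried it passed the FDR only when mouse 8637 was left out (0.43, adjusted p = 0.0456, where 19.7% of all genes passed). Without 9121 the log2 fold change was 0.17 (adjusted p = 0.465), and without 9210 and 9121 it was 0.056 (adjusted p = 0.892). Like the ferritin transcripts, it carries its iron responsive element in the 5′ UTR.

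*Ireb2*, which encodes the iron regulatory protein that is degraded when iron is plentiful, was 169, 142 and 114 CPM in the null mice and 166 and 159 CPM in the wildtype mice. Null mouse 8637 was above both wildtype mice and the other null mice were below, so the genotypes overlapped. The log2 fold change was -0.20 (SE 0.165, adjusted p = 0.485), and it was -0.34 without 8637, -0.064 without 9121 and 0.060 without 9210 and 9121. Its partner *Aco1*, which encodes IRP1, was 471, 398 and 355 CPM in null and 518 and 605 CPM in wildtype mice, below in every null mouse (log2 fold change -0.46, SE 0.156, adjusted p = 0.147).

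**Figure D3:**
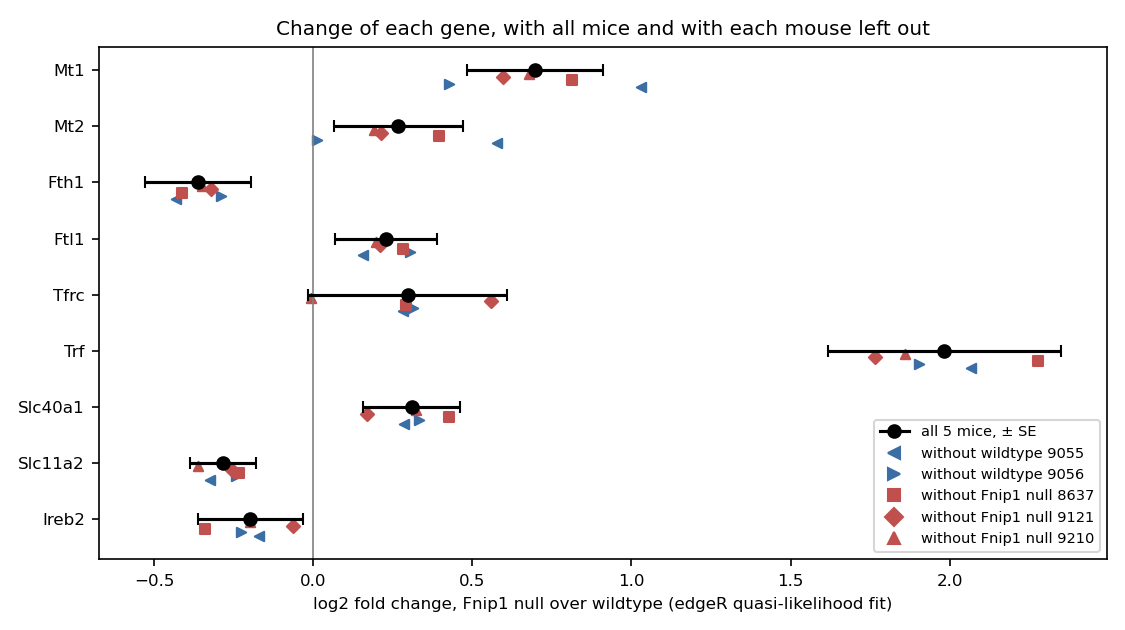
Log2 fold change of each gene, Fnip1 null over wildtype (horizontal axis), with all 5 mice (black, bars are SE) and with each mouse left out (coloured symbols). Trf stayed between 1.76 and 2.28, Tfrc moved between -0.0057 and 0.56, and Mt2 between 0.01 and 0.58.

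The metallothionein genes lie next to each other on chromosome 8, *Mt2* at 94172664 to 94173568 and *Mt1* at 94179082 to 94180327 (GRCm38, plus strand). *Mt1* was 171, 208 and 231 CPM in null mice 8637, 9210 and 9121 and 151 and 99.6 CPM in wildtype mice 9055 and 9056. Every null mouse was above both wildtype mice, and the wildtype mice differed from each other by more than mouse 8637 differed from the higher of them. The means were 203 ± 30.4 (SD, n = 3) and 125 ± 36.5 (SD, n = 2), a log2 fold change of 0.70 (SE 0.212, adjusted p = 0.127). edgeR's exact test (adjusted p = 0.0479) and DESeq2 (adjusted p = 0.0274) passed it at an FDR of 5%, short of 2-fold, as did the quasi-likelihood test without mouse 8637 (0.81, adjusted p = 0.0392). The difference moved most with the wildtype mice and was 0.43 without 9056 and 1.03 without 9055. Without 9210 and 9121 it was 0.45 (adjusted p = 0.342).

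*Mt2* was 58.1, 78.1 and 76.1 CPM in the null mice and 70.2 and 47.4 CPM in the wildtype mice, with mouse 8637 between the wildtype mice. The log2 fold change was 0.27 (SE 0.204, adjusted p = 0.445), and it was 0.012 without wildtype mouse 9056 and -0.014 without 9210 and 9121. Both genes had their lowest value in wildtype mouse 9056. Within each mouse, however, *Mt1* exceeded *Mt2* by a larger factor in the null mice: the ratio of counts was 2.94, 2.67 and 3.03 in null and 2.15 and 2.10 in wildtype mice, 2.88 ± 0.190 (SD, n = 3) against 2.13 ± 0.0389 (SD, n = 2). The groups did not overlap, and the log2 difference was 0.43. An antisense gene, *Gm45774*, overlaps *Mt2*.

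The genes whose pattern was most like that of *Mt1* were *Prickle2*, *Srgn*, *Cd300lg*, *Itga5* and *Pdgfrb*. Likeness was the root mean square difference between centred log2(CPM + 1) values over the 5 mice, across 13272 genes, and was 0.0368 for *Prickle2* and 0.0434 for *Pdgfrb*. *Mt2*, the neighbouring gene, ranked 1122 with 0.222. *Pdgfrb*, a receptor of pericytes and fibroblasts, was 50.2, 61.4 and 64.2 CPM in null and 42.5 and 29.7 CPM in wildtype mice. This is the same order of mice as *Mt1*, which follows from how the gene was chosen and is not a separate result.

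Levels of different genes can be compared only per length, here as normalized CPM per kilobase of the principal transcript. In wildtype mice the order was *Fth1* (4710 to 5188), *Ftl1* (2729 to 3019), *Mt1* (181 to 275), *Mt2* (92.8 to 137), *Slc11a2* (36.8 to 39.0), *Ireb2* (27.6 to 28.7), *Slc40a1* (21.1 to 21.8), *Tfrc* (13.5 to 13.8) and *Trf* (5.76 to 6.45). No neighbours in this order overlapped in the 2 wildtype mice. In *Fnip1* null mice the storage and metal-binding genes kept their order, *Fth1* at 3625 to 4146, *Ftl1* at 3137 to 3518, *Mt1* at 311 to 420 and *Mt2* at 114 to 153. *Trf* (13.4 to 30.9) moved from the last place into the range of *Slc40a1* (22.2 to 31.5), *Ireb2* (19.8 to 29.3) and *Tfrc* (10.1 to 23.1). *Slc11a2* (29.1 to 34.4) overlapped *Trf*, *Slc40a1* and *Ireb2* as well, and in mouse 9121 *Trf* (30.9) was above *Slc11a2* (29.9). On this scale, ferritin transcripts exceeded those of every transport gene by more than an order of magnitude in all mice.

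Other genes of metal handling are summarised by list, with the shares of all genes tested that lay above (22.9%) or below (23%) as the background. Of 20 tested genes for metallothioneins and zinc transport, 1 passed the FDR: the zinc transporter gene *Slc39a11* fell, from 55.6 and 60.4 CPM in wildtype mice to 39.0, 34.5 and 35.1 CPM in null mice (log2 fold change -0.68, SE 0.0992, adjusted p = 0.0496). Its adjusted p was 0.05004 with RLE factors, 0.0543 without mouse 9121, 0.208 without 9210, 0.212 without 9055 and 0.522 without 9056. In the same list 10 genes lay below and 2 above, with a median log2 fold change of -0.17. *Slc30a2*, *Slc39a14* and *Slc39a8*, all zinc transporters, lay below (-0.71, -0.70 and -0.55), and the neuronal metallothionein *Mt3* lay above at a low level (2.30, 1.84 and 3.96 against 1.18 and 1.14 CPM). *Mt4*, a metallothionein of stratified epithelia, had no count in any mouse.

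For copper, none of 9 genes passed the FDR, with 1 above and 3 below. The copper exporter *Atp7b* (-0.68), the copper-zinc superoxide dismutase *Sod1* (-0.48) and the importer *Slc31a1* (-0.25) lay below, and *Slc31a2* (0.43) lay above. Of 17 tested genes of iron uptake, reduction and recycling, none passed, with 6 above and 2 below. *Lcn2*, which binds iron-carrying siderophores and marks tubular injury, was 3.18, 5.35 and 2.80 CPM in null and 0.745 and 0.686 CPM in wildtype mice (log2 fold change 2.39, SE 0.411, adjusted p = 0.0633, and 8.36e-05 with edgeR's exact test). *Lrp2*, which encodes megalin, the proximal tubule receptor for filtered proteins, was 1930, 1379 and 1549 CPM in null and 2323 and 2550 CPM in wildtype mice (-0.59, adjusted p = 0.132). *Lrp1*, a receptor for haem bound to haemopexin, lay above (0.70, adjusted p = 0.106), as did the ferric reductase *Cybrd1* (0.96, adjusted p = 0.28).

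The ferroxidases that load iron onto transferrin after export were higher in every null mouse, though neither passed the FDR. Ceruloplasmin (*Cp*) was 50.6, 69.6 and 94.2 CPM in null and 39.7 and 28.0 CPM in wildtype mice (log2 fold change 1.08, SE 0.284, adjusted p = 0.105, and 0.00991 with edgeR's exact test). Hephaestin (*Heph*) was 21.5, 26.3 and 25.0 CPM in null and 17.7 and 15.4 CPM in wildtype mice (0.55, SE 0.136, adjusted p = 0.0975). They were 2 of the 5 export and storage genes tested, and the other 3 overlapped.

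**Figure D4:**
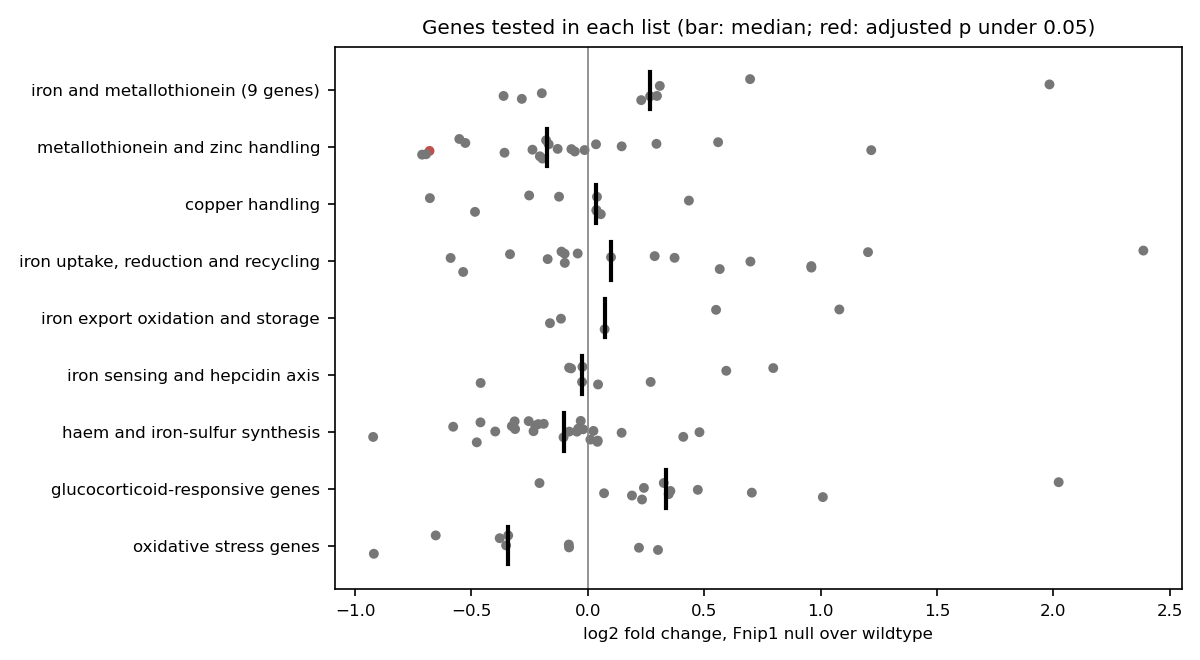
Log2 fold change, Fnip1 null over wildtype (horizontal axis), of each tested gene of the 9 genes and of the lists of metal handling, haem, glucocorticoid-responsive and oxidative stress genes (rows), with the median as a bar and genes at an adjusted p under 0.05 in red. Slc39a11 was the only gene past the FDR, and the medians lay between -0.34 and 0.34.

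In the iron sensing and hepcidin list, 9 genes were tested and none passed, with 3 above and 1 below. *Hfe*, a partner of the transferrin receptors, was 24.9, 28.9 and 30.3 CPM in null and 19.5 and 17.7 CPM in wildtype mice (log2 fold change 0.59, SE 0.128, adjusted p = 0.079), and *Bmp2* (0.80) and *Bmp6* (0.27), signals that induce hepcidin in liver, lay above. The hepcidin genes *Hamp* and *Hamp2* had no count in any mouse. Of 27 genes of haem and iron-sulfur cluster synthesis, none passed, with 10 below and 1 above. Among them, *Cpox*, an enzyme of haem synthesis, was 114, 79.3 and 56.6 CPM in null and 154 and 162 CPM in wildtype mice (-0.92, adjusted p = 0.116), *Uros* (-0.58, adjusted p = 0.0774) and *Lyrm4* (-0.48, adjusted p = 0.0857) lay below, and *Alas2* (0.48, adjusted p = 0.237) lay above.

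Glucocorticoid-responsive and oxidative stress genes were included because both signals act on metallothionein genes. Of 12 glucocorticoid-responsive genes none passed the FDR, with 3 above, 1 below, 8 overlapping and a median log2 fold change of 0.34. Their sum was 2215, 1797 and 1274 CPM in null mice 8637, 9210 and 9121 and 1526 and 1451 CPM in wildtype mice, so that mouse 9121 was below both wildtype mice. *Cdkn1a* (1.01, adjusted p = 0.0637), *Sgk1* (0.70, adjusted p = 0.146) and *Sult1a1* (0.35, adjusted p = 0.275) lay above, and the receptor gene *Nr3c1* (-0.21, adjusted p = 0.265) lay below. Of 9 oxidative stress genes none passed, 5 lay below and 2 above, with a median of -0.34. The subunits of glutamate-cysteine ligase, which makes the glutathione precursor, were lower in every null mouse: *Gclm* was 229, 171 and 181 CPM in null and 345 and 389 CPM in wildtype mice (-0.92, SE 0.152, adjusted p = 0.0604, and 0.000186 with edgeR's exact test), and *Gclc* lay at -0.65 (adjusted p = 0.0688). *Gsr* (-0.38) and *Nqo1* (-0.35) lay below too.

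Several of these list genes had a different log2 fold change when mice 9210 and 9121 were left out. Without both, the log2 fold change moved by more than 1.5 times towards 0 for *Cp* (0.59), *Cpox* (-0.47), *Slc30a2* (-0.12), *Slc39a14* (-0.26), *Slc31a1* (-0.088), *Lrp2* (-0.33), *Aco1* (-0.25), *Bmp2* (0.44), *Sgk1* (0.41) and *Sult1a1* (0.19). It moved by more than 1.5 times away from 0 for *Cybrd1* (1.57), *Bmp6* (0.46) and *Alas2* (0.77). For *Sgk1* and *Sult1a1* mouse 9210 was the highest (323 and 19.7 CPM), and leaving out 9210 alone gave 0.42 and 0.18. No list gene named above changed sign in this setting, where *Lcn2* was 2.15 and *Cdkn1a* 1.15. The following genes were chosen after their values were seen. *Alas1* (1.14 against 0.41 with all mice) and *Fkbp5* (1.01 against 0.23) moved away from 0, and *Steap4* (0.026 against 0.96) and *Hp* (0.17 against 1.20) moved towards it. Without mouse 8637, 6 of the 108 list genes tested met the call rule, where 6.49% of all genes did. Of these, *Cp* (1.28, adjusted p = 0.0152), *Lcn2* (2.498, adjusted p = 0.0181) and *Steap4* (1.27, adjusted p = 0.0278) were higher. *Slc30a2* (-1.12, adjusted p = 0.00969), *Cpox* (-1.21, adjusted p = 0.00994) and *Gclm* (-1.05, adjusted p = 0.00561) were lower. Without mouse 9121, *Lcn2* (2.56, adjusted p = 0.0374) and *Cdkn1a* (1.12, adjusted p = 0.0346) met the call rule, where 137 of 13874 genes did.

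Cortical tissue holds many cell types, and in bulk RNA fewer cells of a type and less RNA per cell cannot be told apart. Summed markers of several cell types moved with the genotype. Macrophage markers, of cells that recycle iron and carry ferroportin, summed to 338, 436 and 788 CPM in null mice 8637, 9210 and 9121 and to 330 and 233 CPM in wildtype mice. Most of that sum was 1 gene, *Cd74* (213, 279 and 527 against 196 and 120 CPM), so it mainly follows that gene. Of 12 macrophage markers tested, 10 lay above, among them *Adgre1* (7.36, 8.97 and 13.7 against 3.66 and 3.26 CPM) and *Cd68*. *Csf1r* lay below (38.2, 36.4 and 63.8 against 72.3 and 68.4 CPM), and the tissue macrophage markers *Vsig4* and *Spic* were at or near 0. Mouse 9121, highest in *Slc40a1*, was highest in this sum too. It was also highest in the neutrophil, erythroid and blood, and loop of Henle and distal tubule sums given below.

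Neutrophil markers summed to 6.71, 9.03 and 10.3 CPM in null and 1.06 and 1.20 CPM in wildtype mice, with *Mpo*, *Elane* and *Camp* at 0. *S100a9* was called (3.53, 4.10 and 3.90 against 0.310 and 0.286 CPM, adjusted p = 0.0313). Adipocyte markers summed to 54.3, 357 and 167 CPM in null and 36.6 and 36.1 CPM in wildtype mice, and 1 of 5 tested, *Fabp4*, lay above. In mouse 8637 *Adipoq* was 0.589 CPM, within the 0.497 and 1.31 CPM of the wildtype mice. *Fabp4*, most of the adipocyte sum in that mouse and in the wildtype mice, was 48.4 CPM against 31.8 and 25.0 CPM. In mouse 8637 *Trf* (34.3 CPM) was above both wildtype mice, as was the adipocyte sum. A link between them was not tested. Erythroid and blood markers summed to 105, 143 and 176 CPM in null and 78.4 and 63.2 CPM in wildtype mice, with 1 of 3 tested above. That gene, *Slc4a1*, an anion exchanger of red cells and of collecting duct intercalated cells, made up most of the sum (98.2, 138 and 167 against 72.1 and 56.8 CPM). The globin genes were at or near 0, with *Hba-a1* at 0 and *Hbb-bs* at most 0.353 CPM, but near-identical globin copies lose reads that align to more than 1 place.

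Of the nephron segments, proximal tubule markers summed to 13652, 10072 and 8598 CPM in null and 14955 and 16824 CPM in wildtype mice, with 5 of 10 below and 2 above. *Slc34a1*, a phosphate transporter of that segment, was 5364, 4817 and 3960 CPM against 5712 and 6341 CPM, so the labelled tissue carried its defining marker in all mice. Podocyte markers summed to 682, 794 and 718 CPM against 385 and 381 CPM, all 6 above and 3 past the FDR. Collecting duct markers summed to 731, 1063 and 931 CPM against 566 and 609 CPM, with 7 of 8 above. The remaining one, *Avpr2*, lay below (11.5, 15.5 and 17.9 against 21.4 and 20.1 CPM). Loop of Henle and distal tubule markers summed to 8369, 8616 and 12086 CPM against 8780 and 7887 CPM, with 3 of 7 above. Tubular injury markers summed to 2254, 3161 and 2996 CPM against 1051 and 1149 CPM, with 3 of 7 tested above and 4 overlapping. Most of that sum was *Spp1*, which encodes osteopontin and was the only one called (1904, 2772 and 2634 against 794 and 813 CPM, adjusted p = 0.0403). The part of these cell type shifts in the levels of the 9 genes was not tested.

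**Figure D5:**
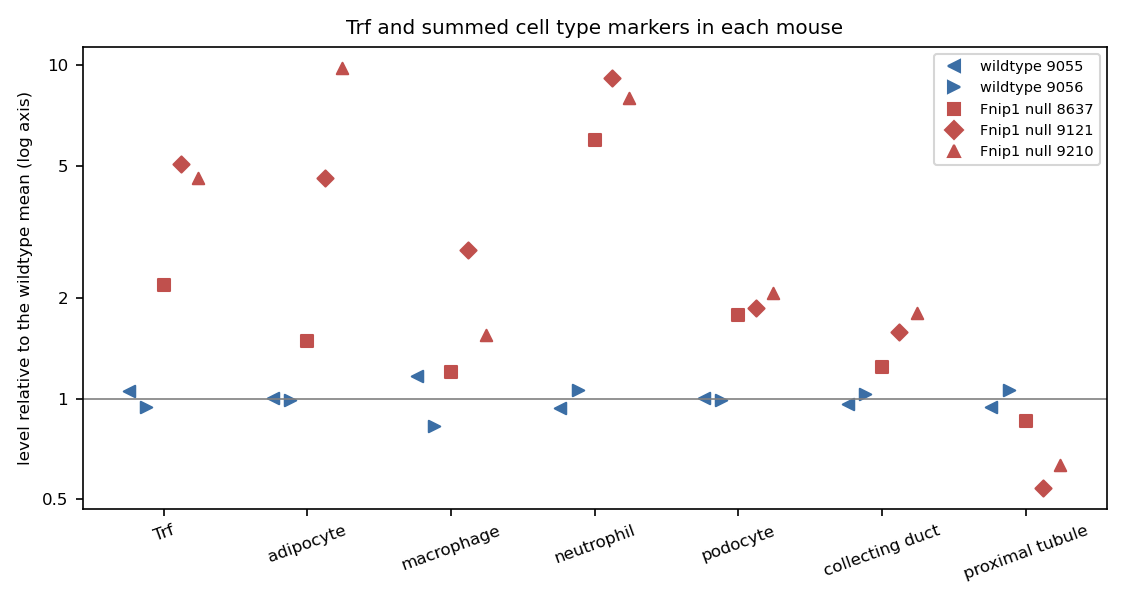
Level of Trf and of summed cell type markers in each mouse, relative to the wildtype mean (vertical axis, log scale), by gene or marker list (horizontal axis). Trf and the adipocyte, macrophage, neutrophil, podocyte and collecting duct markers were highest in mice 9210 and 9121. Podocyte markers were higher in all 3 null mice to a similar extent, and proximal tubule markers were lower in all 3.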

How the data were processed

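Per the labels, kidney cortical RNA of 3 *Fnip1*-/- and 2 *Fnip1*+/+ mice was sequenced. The authors aligned reads to mm10 with TopHat2 2.1.0 and assigned them to gene symbols with HTSeq 0.6.1, as the submitters' processing notes list, and the deposited values are raw counts. Records not counted were 9.91% to 10.8% without a gene, 0.741% to 0.803% ambiguous and 28.3% to 31.4% not uniquely aligned. These 5 summary lines stayed out of all totals and tests.

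The fit used edgeR 4.0.16 under R 4.3.3. A gene stayed in, as 13874 did, unless over 2 mice had under 10 counts of it. Genotypes were compared by edgeR's quasi-likelihood test after TMM normalization, p-values were adjusted by Benjamini-Hochberg, and the call rule was an FDR under 5% with 2-fold or more. SE is that of the log2 fold change, and depth (15799114 to 19132145 counts) limits low genes, since 3 counts equal 0.158 to 0.186 CPM. Nothing says whether mice were littermates.

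Alternatives were edgeR's exact test, DESeq2 1.42.0, other scalings and filters, and leaving out each mouse. The script was tested on simulated data. The 9 genes and the lists were chosen with earlier results of these data known. From each list of metal, haem, glucocorticoid-responsive and oxidative stress genes, the text names each gene past the FDR and up to 4 of the most changed genes whose mean reached 1 CPM and whose null mice all lay on 1 side. Of marker lists it gives sums, markers near 0 and leading markers, and other markers it names were chosen after their values were seen. Positions and transcripts are from GENCODE M21.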

Additional observations from a re-analysis of the deposited data

How the results depend on the processing

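Over all genes tested, 74 were called, and the exact test called 570, DESeq2 487 and the fit with no filter 145. Leaving out 1 mouse gave 0 to 901 genes (0 without 9210, 9055 or 9056, 901 without 8637, 137 without 9121). Settings chosen after seeing the data gave 171 without 9210 and 9121, and with the exact test 465 without 9121 and 258 without 9210. Of the 9 genes, 0 were called, and 1, *Trf*, was called by the exact test, DESeq2, the fit with no filter, and the exact test without 9121 or 9210. Leaving out 1 mouse gave 0 to 1. Of the 108 metal, haem, glucocorticoid-responsive and oxidative stress genes tested, 0 were called. The exact test called 3, where 4.11% of all genes were called, and DESeq2 4, where 3.51% were. With no filter 1 of 121 was called, where 0.812% of all genes were. Leaving out 8637 gave 6, where 6.49% of all genes were called, leaving out 9121 gave 2 and leaving out 9210 gave 0. By the exact test, 3 were called without 9121 and 1 without 9210. The sign of the log2 fold change turned for *Tfrc* without 9210 (-0.0057, with a range of -0.0057 to 0.56 over mice left out, and -0.0054 with the exact test). It also turned without both 9210 and 9121 for *Mt2* (-0.014, with a range of 0.012 to 0.58 over mice left out) and for *Ireb2* (0.060, with a range of -0.34 to -0.064). The causes were not tested. Scaling by library size only moved the median of all genes by 0.163 on the log2 scale and turned no direction among the 9 genes. A fit that leaves 1 mouse in a genotype (without a wildtype mouse, or without 9210 and 9121) assumes that this mouse varies like those of the other genotype. No paired analysis was possible because the mice carry individual numbers and share none between genotypes.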

Other observations

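*Tmprss6*, which encodes a protease that lowers hepcidin signalling in liver, was 6.60 CPM (125 counts) in *Fnip1* null mouse 9121 and at most 0.178 CPM in the other 4 mice. It was removed by the filter on low counts and was chosen here after its values were seen. *Zbtb16*, a glucocorticoid-responsive gene, was 18.3, 6.95 and 2.32 CPM in null mice 8637, 9210 and 9121 and 2.79 and 1.71 CPM in wildtype mice, and was likewise chosen after its values were seen. The haem oxygenase gene *Hmox1* was 35.9, 25.1 and 20.3 CPM in null and 43.3 and 35.2 CPM in wildtype mice, overlapping between the genotypes (log2 fold change -0.54, SE 0.241, adjusted p = 0.227).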
